A study of Mus musculus with 12 samples.

Results

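The resting transcriptome of L929 cells was read from the mock samples of the series, 3 of its 12 samples. L929 is an established mouse fibroblast line derived from subcutaneous connective tissue of strain C3H/An, so the 3 samples describe a line and not fibroblasts of several animals. The mock cells received the vehicle DMSO for 1 h and were collected after a further 6 h, and RNA was sequenced on the BGISEQ-500 platform. The other 9 samples, which received the plasmid pEGFP-N1, the TBK1 inhibitor BX795 at 0.5 μM or both, were not compared here. The sample labels give a treatment text that is the same for all groups, so that the mock cells were not transfected rests on the group names and the study's own description, and whether they received transfection reagent alone is not stated. Nothing states that the 3 samples came from separate cultures, so the spread between them may be technical. Expression is given as FPKM, a count of sequenced fragments scaled to transcript length and to library size, so that levels per length can be compared between genes. FPKM values do not hold the number of reads, so the depth of the samples is unknown and values have no counting interval.

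Fibroblasts build the extracellular matrix of connective tissue and secrete growth factors, chemokines and proteases that act on neighbouring cells. They also guard against infection: cGAS senses DNA in the cytosol and signals through STING and the kinase TBK1, the RIG-I-like helicases sense RNA and signal through MAVS, and Toll-like receptors sense microbial products at membranes. These routes lead to interferon beta, which acts through its receptor and a complex that includes STAT2 and IRF9 to raise antiviral genes. L929 cells are widely used as a source of the macrophage growth factor CSF1 and as a test cell for TNF and interferon.

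Of the 17571 genes in the table, 10019 (57.0%) were listed at 1 FPKM or more in every mock sample, and such a gene is called expressed below. A further 5458 genes were below 1 FPKM in all 3 samples without being at 0 throughout, 1827 were listed at 0 in all 3, and 267 lay on both sides of 1. The median of the gene means over the table was 3.37 FPKM. The 75 genes with a mean of at least 1000 FPKM held 26.0% ± 0.282 of all FPKM (SD, n = 3), and the 739 genes between 100 and 1000 held 35.8% ± 0.0643. Few genes thus made up most of the total, while the 3865 genes between 1 and 10 FPKM held 3.81% ± 0.0595. No gene of the table was named to the mitochondrial chromosome.

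Translation dominated the top of the list. Eef1a1, which delivers aminoacyl-tRNA to the ribosome, stood first at 4708, 4688 and 4567 FPKM in replicates 1, 2 and 3. S100a4, a calcium-binding protein also called fibroblast-specific protein, followed at 4544, 4504 and 4741 FPKM. The ranges of these 2 genes overlapped, so their order was not settled, and both lay above Rps2 at 4114, 4044 and 3983 FPKM. The 85 genes of cytosolic ribosomal proteins held 18.4%, 18.9% and 18.2% of FPKM, a mean of 18.5% ± 0.366 (SD, n = 3). They filled 15 of the first 30 places and 53 of the first 100. Replicate 2 was the highest sample for Rpl41 (3478, 3872 and 3380 FPKM), the gene of the smallest ribosomal protein.

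The other leading genes encoded folding factors, iron storage, glycolysis and the cytoskeleton. The prolyl isomerase gene Ppia had a mean of 2992 FPKM ± 69.5 (SD, n = 3), and the ferritin heavy chain gene Fth1, which stores iron, had 2628 ± 60.6. Gapdh of glycolysis followed at 2388 ± 23.9 and the actin gene Actb at 2346 ± 58.0. Vim, the intermediate filament of mesenchymal cells, was at 2036, 2101 and 2077 FPKM, and Lgals1, a secreted galactoside-binding lectin, at 2064, 2130 and 1959. The ranges of Vim and Lgals1 overlapped. The first 10 genes held 6.59% ± 0.0768 of FPKM, the first 30 held 14.7% ± 0.222 and the first 100 held 30.3% ± 0.308.

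**Figure D1:**
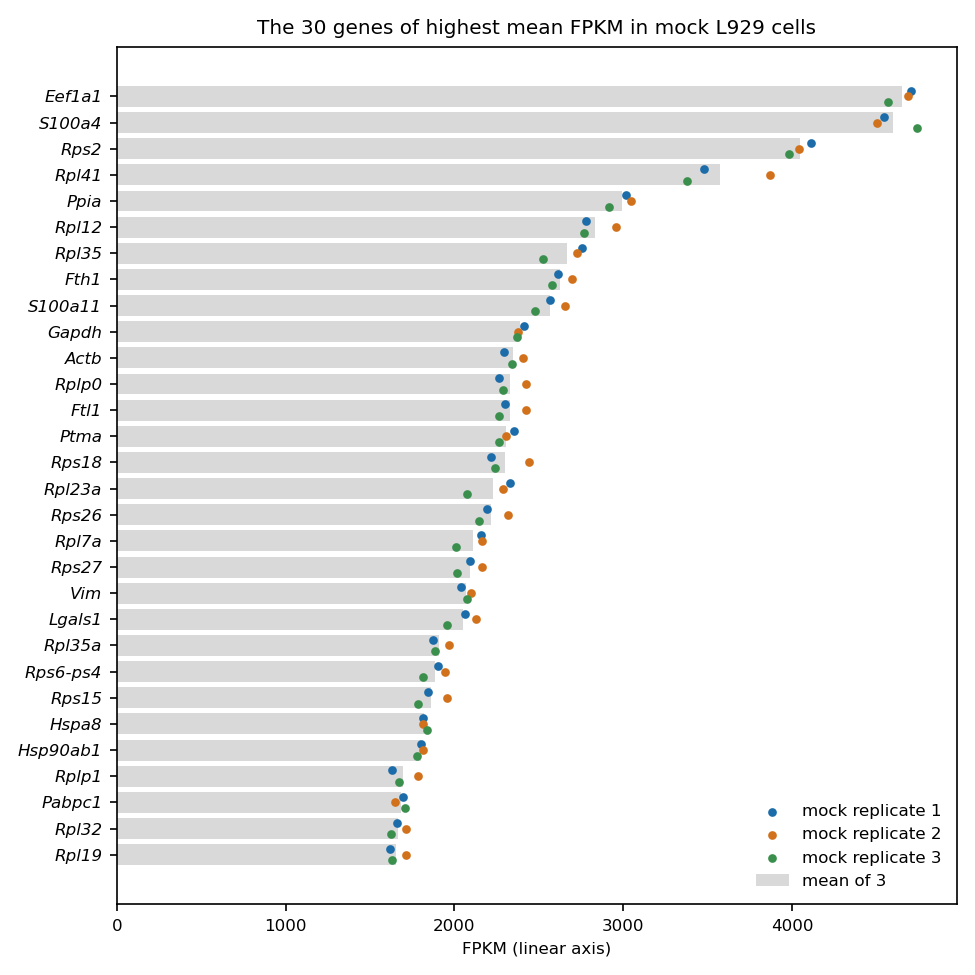
FPKM on a linear axis for the 30 genes of highest mean in mock L929 cells. Bars are the mean of 3 samples and points the samples themselves. From Actb at 2346 FPKM downward, the points of neighbouring genes largely overlap.

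Of the S100 genes, 4 stood among the first 100. Beside S100a4, S100a11 had a mean of 2568 FPKM ± 89.2 (SD, n = 3), S100a6 had 1303 ± 38.3 and S100a10 had 1054 ± 18.5. All 4 lie on chromosome 3, and S100a4 and S100a6 lie near each other, S100a4 at chr3:90603770-90606045 and S100a6 at chr3:90612894-90614414 in GRCm38.p6. S100a5, between this pair, reached 1.15, 1.43 and 1.2 FPKM, and the leukocyte gene S100a8 was listed at 0 in all 3 samples. The 12 S100 genes in the table together held 1.93% ± 0.0239 of FPKM, against 0.103% ± 0.00111 for the 42 collagen genes.

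The label of the cells was checked against markers. Of 25 fibroblast markers listed, only 21 were in the table, so the check leaves the rest out. Of these 21, 17 (81.0%, against 57.0% of all genes) were expressed, with a median of 35.2 FPKM against 3.37 over all genes. Beside S100a4 and Vim, the collagen chaperone gene Serpinh1 was at 379, 380 and 381 FPKM, and Pdgfrb, the receptor for platelet-derived growth factor, at 30.6, 30.9 and 30.6. Twist2, a transcription factor of dermal mesenchyme, had a mean of 37.5 FPKM ± 0.983 (SD, n = 3), and Ddr2, a collagen receptor, had 25.0 ± 0.173. The other 4 markers in the table were near or at 0. Thy1, a surface protein used to sort fibroblasts, was at 0.10, 0.03 and 0.07 FPKM, Fap at a mean of 0.0267, Postn at 0.02, and Dcn, the gene of the proteoglycan decorin, was listed at 0 in all 3 samples.

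Markers of other cell types were expressed in smaller shares than the 57.0% of all genes. No epithelial marker of 13 and no endothelial marker of 8 was expressed, and their summed levels ranged from 0.86 to 0.98 FPKM and from 0.12 to 0.21 FPKM. Of 13 macrophage and leukocyte markers, Cd68 alone was expressed, at 116, 119 and 113 FPKM, while Ptprc had a mean of 0.00333 and Adgre1, Tyrobp and Cd3e were listed at 0. Of 10 adipocyte markers 4 (40%) were expressed. The fatty acid carrier gene Fabp4 was at 306, 313 and 297 FPKM and the nuclear receptor gene Pparg at 45.6, 42.8 and 40.5, beside the lipase genes Lpl and Pnpla2 at means of 36.7 and 15.8, whereas Adipoq had a mean of 0.110 FPKM and Cebpa and Lep were listed at 0. Of 9 cartilage and bone markers, Spp1, Runx2 and Sox9 were expressed and Bglap was listed at 0. Smtn and Des, at means of 24.9 and 6.38 FPKM, were expressed of 8 muscle markers, and S100b and Mbp, at 5.63 and 2.70, of 9 neuronal and glial markers. The sample is RNA of a whole culture, so fewer cells of a type and less RNA per cell cannot be told apart.

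**Figure D2:**
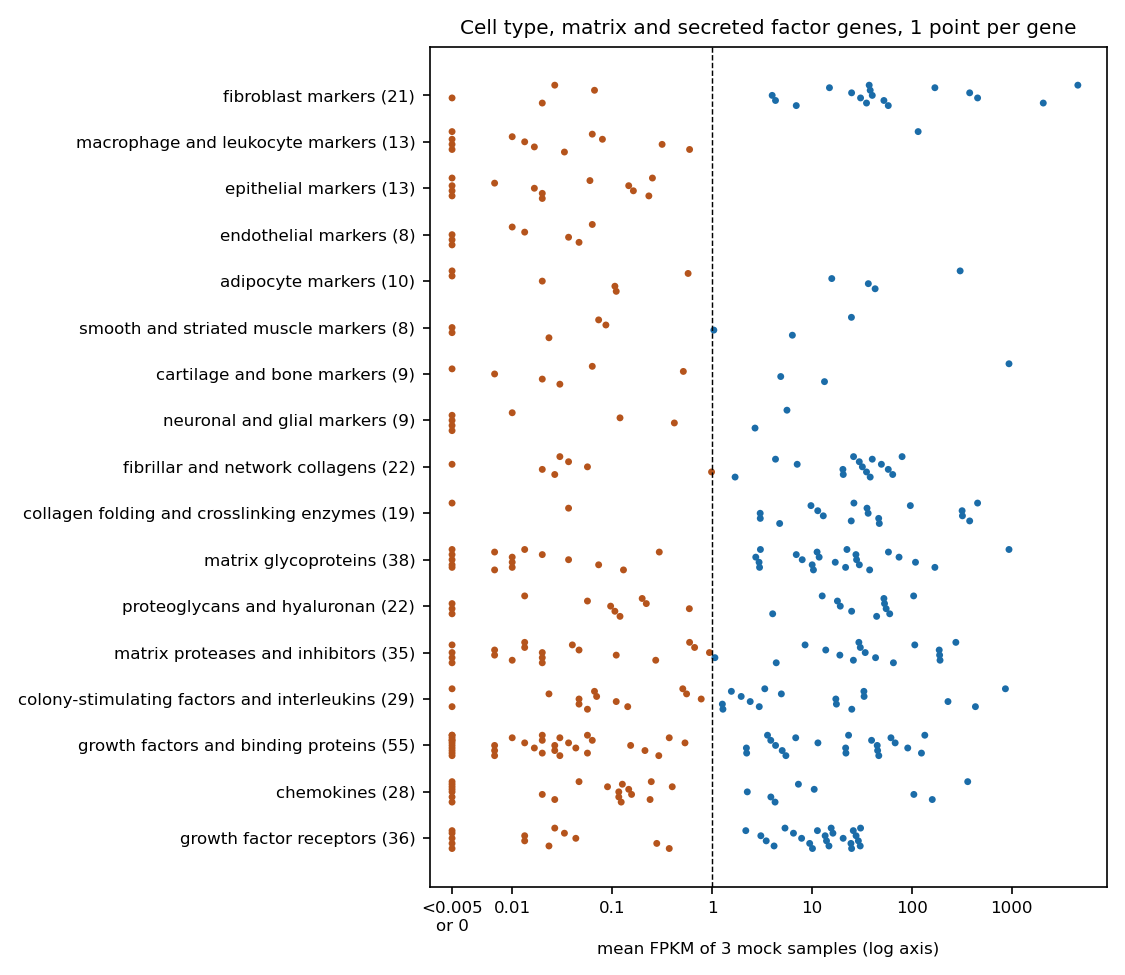
Mean FPKM of 3 mock samples on a log axis, 1 point per gene, by gene list with the number of genes in brackets. Blue points have a mean of 1 FPKM or more, and means at or next to 0 are drawn together at the left. The epithelial and endothelial lists lie wholly left of 1 FPKM, while most lists of matrix and secreted factor genes split into a high and a low part.

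Matrix and secreted factor genes held both high and low members. Of 248 such genes in the table, 126 (50.8%) were expressed, 92 were below 1 FPKM in all samples, 28 were listed at 0 throughout and 2 lay on both sides. The share expressed was below the 57.0% of the whole table, and the median of 1.28 FPKM was below 3.37. Of the 248 genes, 21 had a mean of 100 FPKM or more. Over all genes, 4.21% had a mean of 100 to 1000 FPKM and 0.427% one of at least 1000.

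Collagens were present at moderate levels. Of 22 genes of fibrillar and network collagens 15 (68.2%) were expressed, with a median of 20.5 FPKM, and 17 of all 42 collagen genes were, where 57.0% of all genes were expressed. Col18a1, a basement membrane collagen, was highest at 79.1, 80.9 and 79.9 FPKM, above the ranges of Col4a1 (62.7, 65.4 and 65.1) and Col1a1 (55.9, 59.5 and 59.1). Col1a1 and Col1a2 encode the chains of type I collagen, the main fibre of connective tissue, and Col1a2 was lower at 41.1, 41.5 and 38.0 FPKM. The type VI chain gene Col6a3 had a mean of 49.6 FPKM ± 1.30 (SD, n = 3). Col3a1, which partners type I collagen in skin, reached 4.62, 4.16 and 4.19 FPKM. Col12a1, Col14a1 and Col15a1 were near 0, each with a mean below 0.1 FPKM.

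Some of the enzymes and chaperones that fold and process collagen stood above every chain. Of 19 such genes 17 (89.5%, against 57.0% of all genes) were expressed, with a median of 26.3 FPKM. P4hb, a subunit of the prolyl hydroxylase that stabilises the triple helix, was at 451, 449 and 467 FPKM. Pcolce, which enhances cleavage of the procollagen end, had a mean of 321 FPKM ± 3.65 (SD, n = 3), and its range overlapped that of Ppib, a prolyl isomerase of the endoplasmic reticulum, at 319 ± 5.42. Among the crosslinking enzymes, Lox was listed at 0 in all 3 samples, while its relatives were present. Loxl1 was highest at 46.8, 48.7 and 44.4 FPKM, followed by Loxl3 at 13.3, 12.7 and 13.1.

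Matrix glycoproteins were led by Spp1, osteopontin, at 942, 945 and 933 FPKM. Sparc, which binds collagen, followed at 169, 172 and 170, and Fbln2 at 110, 108 and 109. Fn1, fibronectin, the adhesive protein on which fibroblasts spread, was far lower at 6.67, 7.24 and 7.02 FPKM. Of 38 genes, 22 (57.9%) were expressed, close to the 57.0% of all genes, and 16 were not. Ccn2, Tgfbi, Fbn2 and Lama4 were listed at 0 in all 3 samples, and Tnc, Postn, Eln and Thbs1 had means of 0.00333, 0.02, 0.01 and 0.0133 FPKM. Among the laminin chains, Lamb1 (58.4 FPKM ± 0.457, SD, n = 3) and Lamc1 (37.9 ± 0.537) were present with Lama5 (21.7 ± 1.07), while Lama2 had a mean of 0.130.

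Of 22 genes of proteoglycans and hyaluronan, 11 (50%, against 57.0% of all genes) were expressed. Bgn, biglycan, was at 104, 104 and 105 FPKM, whereas its close relative Dcn was at 0. The membrane proteoglycan genes Cspg4 (58.5, 61.7 and 60.2 FPKM), Gpc1 (54.8, 55.1 and 56.3) and Sdc1 (52.2, 53.5 and 54.4) lay close together. Vcan, the large matrix proteoglycan versican, was at 0.24, 0.14 and 0.22 FPKM. The hyaluronan synthase genes Has1 and Has3 had means of 0.0967 and 0.120 FPKM, while Cd44, the receptor for hyaluronan, was at 53.4, 51.3 and 53.1.

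Among matrix proteases and inhibitors, 16 of 35 genes (45.7%, against 57.0% of all genes) were expressed, and lysosomal cathepsins led. Ctsb was at 278, 277 and 273 FPKM, and Ctsl, Cst3 and Ctsd followed with overlapping ranges around means of 192, 190 and 188. The inhibitor genes Timp1 (111, 107 and 103 FPKM) and Timp2 (65.4, 66.3 and 64.8) were present, while Timp3 had a mean of 0.0133. Mmp14, a membrane-bound collagenase, was at 33.7, 33.1 and 35.9 FPKM, and Mmp2, the gelatinase that it activates, had a mean of 0.0133. Plaur, the receptor of the urokinase plasminogen activator, was at 43.7, 45.4 and 41.1 FPKM, and the activator gene Plau was listed at 0.

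Secreted factors formed the third part of this repertoire. Of 29 colony-stimulating factors and interleukins, 16 (55.2%) were expressed, beside 21 of 55 growth factors and binding proteins (38.2%) and 8 of 28 chemokines (28.6%). The share over all genes was 57.0%, so the first list was close to it and the other lists lower. Mif, a cytokine named for its effect on macrophage migration, was highest at 843, 911 and 844 FPKM. Csf1, which drives growth of macrophages, was at 434, 435 and 432 FPKM, place 169 of all genes, and its receptor gene Csf1r had a mean of 0.0333. Il34, the other ligand of that receptor, was at 4.99, 5.29 and 4.56 FPKM. Csf2 and Csf3 had means of 0.0467 and 0.0567. Of the inflammatory cytokines named here, Il6 was below 1 at 0.41, 0.56 and 0.56 FPKM and Il1b had a mean of 0.0467. Tnf was expressed, just above the cutoff, at 1.23, 1.5 and 1.08.

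Of the chemokines, 3 stood far above the rest. Ccl2, which draws monocytes, was at 372, 376 and 341 FPKM, Ccl7, its neighbour in function, at 165, 155 and 160, and Cxcl1, which draws neutrophils, at 103, 108 and 104. Their ranges did not overlap. The next chemokine, Ccl25, reached 11.01, 10.63 and 10.01 FPKM. The interferon-induced chemokine genes Cxcl9, Cxcl10 and Ccl5 had means of 0.127, 0.400 and 0.240 FPKM, all below 1 in every sample, and Ccl4, Ccl11, Ccl12 and Ccl22 were among 7 chemokines listed at 0.

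Of the growth factors, Grn, progranulin, was highest at 131, 140 and 135 FPKM, above the range of Igfbp6, a binding protein of insulin-like growth factors, at 124, 128 and 123. Pdgfa, a mitogen of fibroblasts, was at 60.7, 63.8 and 61.1 FPKM. Tgfb1 was at 41.1, 39.1 and 38.6 FPKM, and the receptor genes Tgfbr1 (6.59, 6.07 and 6.96) and Tgfbr2 (14.6, 13.7 and 13.8) were expressed. Other factors were present while a receptor gene was near 0. Vegfa was at 46.5, 44.3 and 44.5 FPKM, and its receptor genes Kdr and Flt1 had means of 0.0133 and 0.0433. Of the neuropilin coreceptors, Nrp1 was listed at 0 and Nrp2 was at 27.9, 28.2 and 27.0 FPKM. Fgf7, which acts on epithelium, was at 21.8, 21.8 and 21.7 FPKM, and Fgfr2, which carries its receptor, had a mean of 0.00333. Igf1, Hgf, Fgf2 and Wnt5a each had means below 0.1 FPKM, Wnt5a being listed at 0.

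Innate sensing and interferon genes were expressed about as often as genes in general. Of 271 in the table, 165 (60.9%) were expressed, against 57.0% of all genes, with 88 below 1 FPKM, 15 listed at 0 throughout and 3 on both sides of 1. Their median was 3.22 FPKM, close to the 3.37 of the whole table. The list was uneven from step to step of the pathway.

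Of 43 genes of cytosolic DNA sensing, 35 (81.4%, against 57.0% of all genes) were expressed, with a median of 9.70 FPKM. Cgas, the sensor itself, was low among the expressed members at 2.82, 1.94 and 2.58 FPKM, and Sting1, the adaptor of the endoplasmic reticulum, was at 5.38, 6.26 and 5.73. The ranges of these 2 genes did not overlap. Tbk1, the kinase downstream of STING and the target of BX795, was higher at 21.9, 20.9 and 20.9 FPKM, and its relative Ikbke was at 4.40, 4.33 and 4.08. Tank, Tbkbp1 and Azi2, adaptors of TBK1, had means of 18.4, 18.4 and 23.4 FPKM. Surf4, which helps return STING to the endoplasmic reticulum, was highest of the list at 233, 238 and 240 FPKM, overlapping Hmgb1, a chromatin protein, at 234, 225 and 232.

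The DNA sensors of the PYHIN family diverged. Ifi204 was at 36.4, 34.4 and 36.4 FPKM and Ifi203 at 11.2, 10.3 and 12.7, while Ifi208, Ifi209, Ifi206 and Ifi213 stayed below 0.3 FPKM in every sample. Ifi205 lay on both sides of 1, at 1.60, 1.69 and 0.61 FPKM. Among the nucleases and hydrolases that limit the pathway, Samhd1, which degrades nucleotides, was at 24.8, 25.5 and 24.9 FPKM and Trex1, which degrades DNA, at 4.75, 5.60 and 3.74. Enpp1, which hydrolyses the messenger cGAMP, had a mean of 0.00333 FPKM. Zbp1, a sensor of Z-form nucleic acid, was at 0.19, 0.08 and 0.15.

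In RNA sensing, the adaptor gene Mavs stood above the RIG-I-like sensors, and 24 of 28 genes (85.7%, against 57.0% of all genes) were expressed with a median of 13.1 FPKM. Mavs was at 20.1, 19.99 and 21.6 FPKM. Rigi, the gene of RIG-I, was at 1.52, 1.65 and 1.55, and Dhx58, a related helicase without the signalling domain, at 1.64, 1.56 and 1.51, so these 2 could not be ordered. Ifih1, the gene of MDA5, stood below both at 0.18, 0.16 and 0.24 FPKM. Trim25, a ubiquitin ligase of the RIG-I route, was at 17.0, 17.5 and 18.3. Eif2ak2, the kinase PKR that stops translation when it binds double-stranded RNA, was at 8.52, 8.67 and 8.76, and Adar, which edits such RNA, at 15.5, 15.4 and 15.3. Ddx60, an interferon-induced helicase, was listed at 0 in all 3 samples.

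Of 31 genes of Toll-like receptors and adaptors, 20 (64.5%, against 57.0% of all genes) were expressed, with a median of 5.09 FPKM. Of the Toll-like receptor genes named here, which are not all of the list, Tlr2, Tlr4 and Tlr5, all surface receptors, were expressed. Tlr2, a sensor of lipoproteins, was at 6.37, 6.37 and 6.19 FPKM, Tlr4, the lipopolysaccharide receptor, at 6.57, 6.10 and 6.20, and Tlr5, the flagellin receptor, at 4.45, 4.16 and 3.80. Ly96, the partner of TLR4, was at 5.41, 5.37 and 5.88, while its coreceptor gene Cd14 was below 1 at 0.59, 0.65 and 0.55. Tlr3, which senses double-stranded RNA, was at 0.31, 0.51 and 0.29, Tlr7 at 0.11, 0.21 and 0.12, and Tlr8 and Tlr9, the DNA receptor, were listed at 0. Tlr1 and Tlr13 had means of 0.02 and 0.00667 FPKM. The adaptor genes Myd88 (35.7, 35.1 and 36.2) and Ticam1 (12.45, 13.04 and 13.24) were above the range of each of these Toll-like receptors, Ticam2 had a mean of 0.00667, and the inhibitory kinase gene Irak3 was listed at 0.

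NOD-like and C-type lectin receptors were the lowest sensing list, with 12 of 30 genes expressed (40%, against 57.0% of all genes) and a median of 0.445 FPKM. Casp1 (12.3, 11.2 and 11.7 FPKM) and Casp4 (28.2, 25.9 and 22.7), caspases of inflammasomes, were expressed. The inflammasome sensor gene Nlrp3 had a mean of 0.02 FPKM and the adaptor gene Pycard 0.0367. Nod1, a sensor of bacterial cell wall, was at 1.32, 1.19 and 1.41. Syk, a kinase used by lectin receptors, was listed at 0 in all 3 samples.

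**Figure D3:**
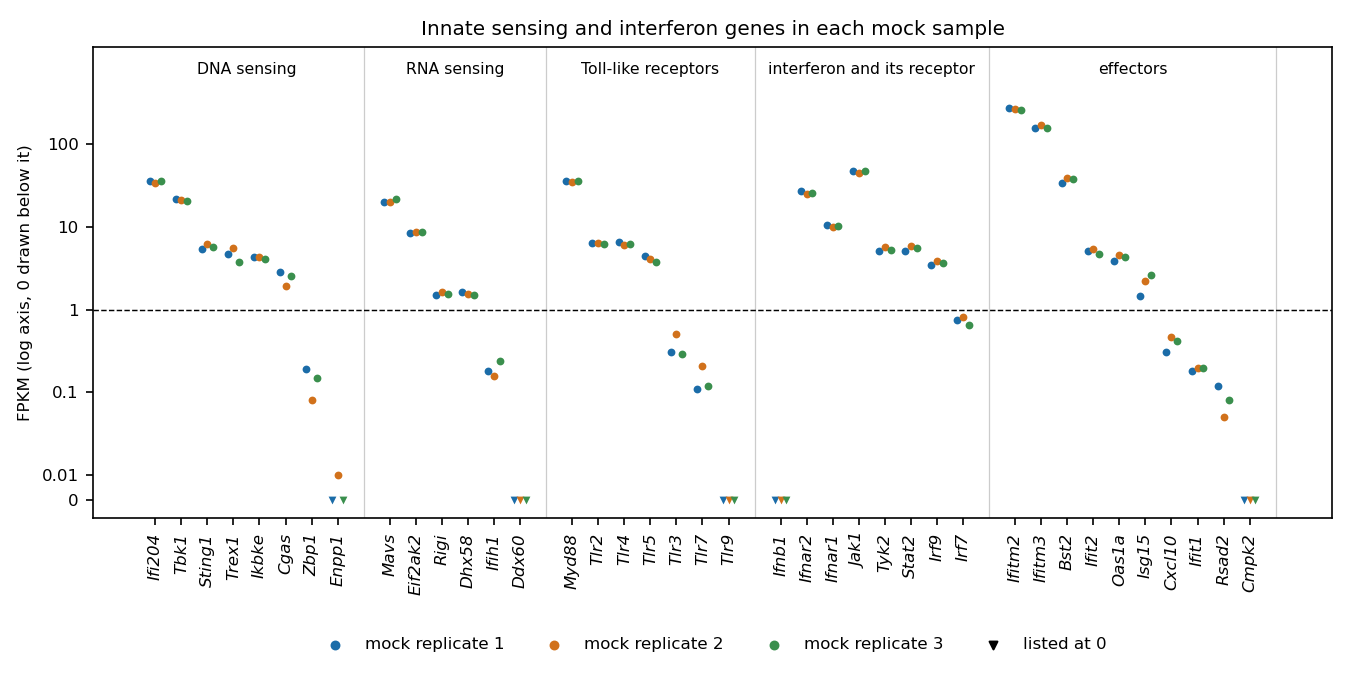
FPKM on a log axis in each of the 3 mock samples for genes of DNA sensing, RNA sensing, Toll-like receptors, the interferon pathway and antiviral effectors. The dashed line marks 1 FPKM and triangles mark values of 0. The adaptors Mavs and Myd88, the receptor chain Ifnar2 and the kinase Jak1 lie above 10 FPKM, while Ifnb1 was at 0 in every sample.

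No interferon gene in the table was expressed, and the receptor was. Of 21 interferon ligands listed, only 8 were in the table, and 0 of these were expressed, against 57.0% of all genes. Ifnb1, Ifna4, Ifna5, Ifna7 and Ifnab were listed at 0 in all 3 samples, as were 10.4% of all genes. Ifnz was highest at 0.67, 0.56 and 0.33 FPKM. Ifnar1 and Ifnar2, the chains of the type I receptor, were at 10.7, 9.96 and 10.2 FPKM and at 27.2, 25.0 and 25.5. Their kinases differed, with Jak1 at 47.8, 45.2 and 48.1 and Tyk2 at 5.06, 5.76 and 5.34. Of the factors of the interferon-stimulated complex, Stat2 was at 5.12, 5.87 and 5.55 FPKM and Irf9 at 3.52, 3.90 and 3.66. Stat2 lay above the range of Irf9. Stat3 and Stat6 were higher, at means of 24.7 FPKM ± 0.732 and 27.9 ± 1.35 (SD, n = 3).

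The interferon gamma receptor was also present, Ifngr1 at 7.92, 7.30 and 7.53 FPKM and Ifngr2 at 23.1, 22.8 and 23.2. Ifnlr1, the specific chain of the lambda receptor, had a mean of 0.00333 FPKM while its partner Il10rb was at 9.64, 10.5 and 9.84. Of the 35 genes of receptors, JAKs, STATs and their inhibitors, 32 (91.4%, against 57.0% of all genes) were expressed. The inhibitor genes Socs1 (7.22, 7.65 and 7.06 FPKM) and Socs3 (18.4, 18.3 and 18.0) were among them, and Usp18, which restrains the type I receptor, was below 1 at 0.46, 0.55 and 0.62.

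Of 11 interferon regulatory factor and cofactor genes, 6 (54.5%) were expressed, close to the 57.0% of all genes. Irf1 was at 12.7, 12.9 and 14.9 FPKM and Irf2, its antagonist, at 13.04, 14.25 and 13.38, with overlapping ranges. Irf7, which amplifies the response, was at 0.75, 0.81 and 0.65, and Irf5 at 0.42, 0.52 and 0.35. Irf4 had a mean of 0.0267 FPKM, and Irf8, a factor of myeloid cells, was listed at 0.

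Antiviral effectors ranged from 0 to a mean of 266 FPKM at rest. Of 91 genes known as interferon-stimulated, 44 (48.4%, against 57.0% of all genes) were expressed, 42 were below 1 FPKM and 5 were at 0 throughout, with a median of 0.743 FPKM against 3.37 over all genes. Ifitm2 and Ifitm3, which block virus entry at membranes, were highest at 272, 265 and 261 FPKM and at 156, 169 and 157. Bst2, which tethers budding virions, was at 34.1, 39.0 and 37.6 FPKM, and Zc3hav1, which binds viral RNA, at 52.2, 53.1 and 52.6. Several effectors best known for strong induction were well below 1 FPKM. Ifit1 was at 0.18, 0.20 and 0.20 FPKM, Rsad2, the gene of viperin, at 0.12, 0.05 and 0.08, and Cmpk2, its genomic neighbour, was listed at 0. The relatives of these genes did not share one level, since Ifit2 was at 5.18, 5.45 and 4.78 FPKM and Ifitm1 at 0.74, 0.29 and 0.36. Isg15, a ubiquitin-like modifier, was at 1.46, 2.22 and 2.61, a wide spread for an expressed gene. Of the interferon-induced GTPases, Irgm1 was expressed at 4.40, 4.35 and 4.98 FPKM, while Gbp2 was at 0.05, 0.12 and 0.09.

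The sequence that many of these genes carry is shown for members at either end of the scale. The interferon-stimulated response element, bound by the complex that holds STAT2 and IRF9, has the core GAAANNGAAA, or TTTCNNTTTC on the other strand, where N is any base. Promoters of 250 bases before to 50 after each start, from RefSeq on GRCm38.p6, were available for 13784 genes of the table, and overlapping matches on both strands were counted. Of these genes 522 (3.79%) held the core in at least 1 promoter. Of 73 effector genes with a promoter, 37 (50.7%) held it, and of 16 collagen genes 0 did. The effectors were listed as known interferon-stimulated genes, so their share describes the list. With 3.79% over all genes, 16 collagen genes are too few to show a lack. Effectors with the core were found at both levels: 15 of 37 expressed effectors (40.5%) and 22 of 36 below 1 FPKM (61.1%) held it, against 3.56% and 4.02% of all genes at these levels. The windows below show in capitals the match nearest the start, among those before it, in 6 effectors chosen after their values were seen, from Ifitm2 at a mean of 266 FPKM to Rsad2 at 0.0833, read along the gene's strand. They lie at chr7:140955968-140956037 on the minus strand for Ifitm2, chr8:71537557-71537626 on the minus strand for Bst2, chr4:156200845-156200914 on the minus strand for Isg15, chr5:92349063-92349132 on the minus strand for Cxcl10, chr19:34640774-34640843 on the plus strand for Ifit1 and chr12:26456533-26456602 on the minus strand for Rsad2.
Ifitm2: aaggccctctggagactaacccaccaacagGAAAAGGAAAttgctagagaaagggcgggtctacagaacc
Bst2: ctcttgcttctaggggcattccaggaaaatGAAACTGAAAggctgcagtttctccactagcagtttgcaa
Isg15: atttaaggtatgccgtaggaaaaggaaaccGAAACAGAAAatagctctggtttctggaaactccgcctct
Cxcl10: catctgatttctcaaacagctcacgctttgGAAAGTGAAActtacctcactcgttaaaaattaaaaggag
Ifit1: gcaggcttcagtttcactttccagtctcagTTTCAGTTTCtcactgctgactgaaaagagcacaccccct
Rsad2: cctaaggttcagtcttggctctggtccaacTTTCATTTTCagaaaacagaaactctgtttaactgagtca
A match is a description of letters and does not show that a factor binds there. Further matches in the windows of Bst2, Isg15 and Ifit1 are left in lower case. The core in capitals was in the forward letters in Ifitm2, Bst2, Isg15 and Cxcl10 and in the reverse letters in Ifit1 and Rsad2.

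The OAS enzymes sense double-stranded RNA and make a small oligoadenylate messenger of antiviral defence. Oas1a was the highest OAS gene at 3.86, 4.64 and 4.31 FPKM, above Oasl1 (1.49, 1.59 and 1.19) and Oas1g (1.34, 1.12 and 1.40), whose ranges overlapped. Oas3 was below 1 at 0.51, 0.68 and 0.63, and Oas2 at 0.09, 0.19 and 0.13. Pde12, which degrades the messenger, was higher at 11.7, 10.9 and 10.3 FPKM. Abce1, a ribosome recycling factor, was the highest of the list at 71.8, 67.4 and 70.9. Of its 14 genes, 6 (42.9%, against 57.0% of all genes) were expressed.

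The Hox genes, which keep a record of position along the body axis in fibroblasts, differed by paralogue group. Of 37 in the table, 28 (75.7%, against 57.0% of all genes) were expressed. All 25 genes of paralogue groups 1 to 9 in the table were expressed, at means from 1.18 to 27.7 FPKM. The lowest, Hoxc5, was just above the cutoff at 1.05, 1.28 and 1.22 FPKM. Of 3 genes of group 10, Hoxc10 was the highest Hox gene at 80.3, 75.9 and 76.9 FPKM, Hoxa10 was at 25.1, 24.5 and 24.9, and Hoxd10 was listed at 0. Of 9 genes of groups 11 to 13, Hoxb13 alone was expressed, at 6.66, 7.73 and 6.06 FPKM, and the other 8 had means below 0.1.

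**Figure D4:**
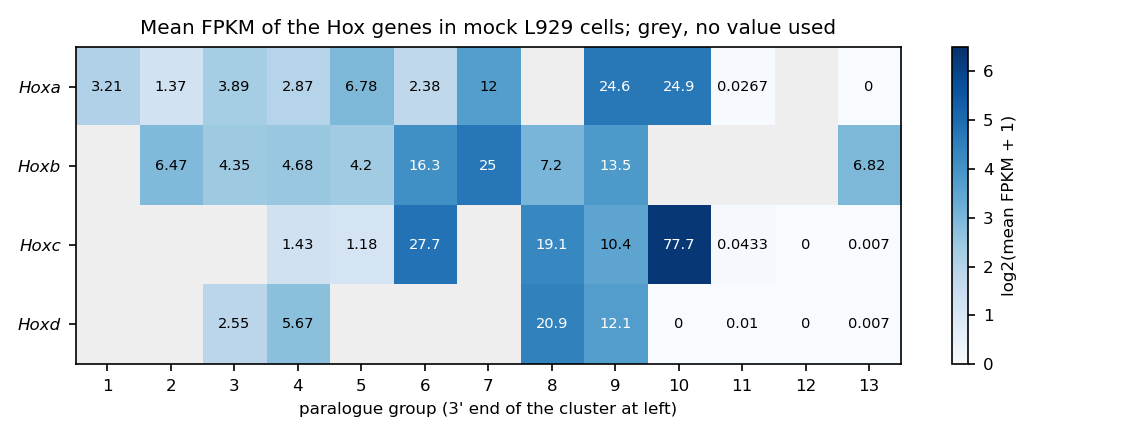
Mean FPKM of 3 mock samples for each Hox gene, by cluster (rows) and paralogue group (columns), with the colour on the log2(mean FPKM + 1) scale. Values reach 77.7 at Hoxc10 and drop to near 0 from group 11 on, except Hoxb13 at 6.82.

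The 3 samples lay close together. Among the 10019 expressed genes, the median coefficient of variation (CV, the SD as a percent of the mean) was 3.85%, and 90.6% of genes had a CV under 10%. Only 118 genes had a CV over 20%, and 20 genes differed by 2-fold or more between the highest and lowest sample. On the log2(FPKM + 1) scale the median SD was 0.0506. Pearson's r across these genes was 0.998 for each pair of samples, which describes genes and not independent replicates. The median CV was 2.77% at 1000 FPKM and above, 2.37% between 100 and 1000, 3.19% between 10 and 100, 6.22% between 1 and 10 and 25.8% between 0.1 and 1, so that from 1000 FPKM downward it was larger in each lower band. Replicates 1, 2 and 3 were the highest of the 3 for 31.9%, 32.2% and 35.9% of expressed genes and the lowest for 31.9%, 37.1% and 31.02%, genes with tied values being left out. Replicate 2, most often the lowest, had the highest share of FPKM in ribosomal protein genes. The median CV was 3.34%, 2.94% and 3.13% without replicates 1, 2 and 3 in turn.

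**Figure D5:**
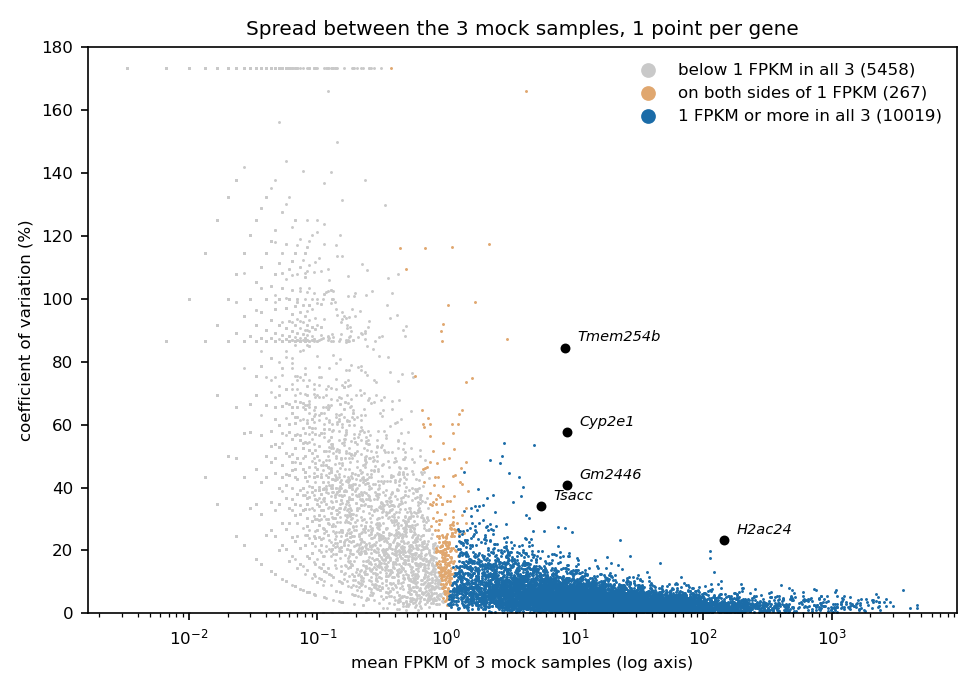
CV in percent against mean FPKM on a log axis, 1 point per gene with a mean above 0, coloured by level. Genes at 1 FPKM or more in all 3 samples have a median CV of 3.85%, and the named genes are among the 15 of largest CV with a mean of at least 5 FPKM.

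Among genes with a mean of at least 5 FPKM, the largest CV belonged to Tmem254b, at 11.9, 0.24 and 13.1 FPKM. All of its 31-base words, and all of those of its copy Tmem254c, were found in other genes of the annotation (100% each). Tmem254c was at 0, 12.2 and 0.35 FPKM, high in the sample where Tmem254b was low. Summed with the copy Tmem254a, they were at 12.5, 12.8 and 13.9, a CV of 5.69%. For the copies Rsph3a and Rsph3b, the CV was 27.5% for Rsph3b and 1.82% for their sum. Rsph3a and Rsph3b shared 63.0% and 77.8% of their words with other genes. The levels of single copies in these families are uncertain. Cyp2e1, an alcohol-oxidising cytochrome, was at 5.56, 14.6 and 6.14 FPKM, high in replicate 2, and shared 5.83% of its words. The histone gene H2ac24 was at 158, 172 and 107, low in replicate 3, and shared 93.4% of its words with other genes. At the other end, Abt1, a basal transcription activator, was listed at 6.10 in all 3 samples, and Aimp1 of the tRNA synthetase complex and Hoxa9 had CVs of 0.0577% and 0.0846%.

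Shared sequence also touched genes named above. The pseudogene Rps6-ps4 was listed at 1902, 1945 and 1816 FPKM with 100% of its 31-base words found in other genes, while Rps6, a ribosomal protein gene, was at 51.1, 44.2 and 47.5. Shared words made up 97.6% for Trex1, 78.9% for Ifi211, 68.8% for Oas1a, 60.5% for Mif, 55.5% for Ifitm2 and 49.2% for S100a4, against 6.80% for Cgas and 0 for Csf1 and Ccl2. Tmsb4x, an actin-binding thymosin, was at 0.93, 0.62 and 1.12 FPKM with 0% of its words shared in GENCODE M21. Its relative Tmsb10 was at 896, 857 and 833 FPKM with 32.0% shared. The part of shared sequence in the listed levels was not tested, and neither was that of the strand of the reads, which is not given in the sources used here.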

How the data were processed

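RNA of L929 cells was sequenced on the BGISEQ-500 platform, and the authors aligned the reads with Bowtie2 2.2.5 and estimated FPKM with RSEM on GRCm38.p5, per the labels' processing notes and the study's methods. The deposited values are FPKM per gene for 17571 Entrez identifiers, of which 17450 were named from the RefSeq table of GRCm38.p6, a patch release of the same assembly, and 121 were not found there. Of 12 columns, the 3 mock columns were used, and the other 9 were mapped and left out. A gene was called expressed at 1 FPKM or more in all 3 samples. Means, SDs and CVs were computed from the deposited FPKM with pandas 2.3.3 and numpy 2.4.6, and a pseudocount of 1 was used on the log2 scale. No test was run, because no groups were compared. Neighbours in an order were called apart where the ranges of their 3 values did not overlap. Shared sequence is the percent of a gene's 31-base words, on either strand, found in another gene of GENCODE M21. Genes were named by rule: the 30 of highest mean, members of the gene lists, and the 15 largest and 5 smallest CVs at a mean of 5 FPKM or more. The other S100 genes, the copies of Tmem254b and Rsph3b, and Rps6 fall outside the rule and were chosen after their values were seen. The lists and their members were chosen with earlier results of these data known. Of 961 listed genes, 871 were in the table and the other 90 were not analysed here. RSEM divides reads among copies, FPKM sums differ between samples, and a value of 0 can be a failed estimate. The summaries were tested on simulated data. Other thresholds, scalings, pseudocounts and leaving out each sample were tried as alternatives. Some genes of the lists are not reported here.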

Additional observations from a re-analysis of the deposited data

How the results depend on the processing

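The number of expressed genes in the table, and in the innate and the matrix and secreted factor lists, stayed within 1.5 times its value at thresholds of 0.5, 2 and 5 FPKM, on the mean, after rescaling to TPM, after quantile normalization and without each sample. The table's count ranged from 7946 at 5 FPKM to 10530 at 0.5 FPKM. The shares of FPKM in the first 10 genes and in ribosomal protein genes moved by less than their SD under every alternative run, and the first 30 genes shared 29 or 30 members with the reported order. The median CV moved from 3.85% to 6.45% with no filter and to 3.40% at a mean of at least 5 FPKM, and without 1 sample it ranged from 2.94% to 3.34%. The median SD on the log2 scale moved from 0.0506 to 0.0551 with a pseudocount of 0.1, to 0.0557 with 0.01, to 0.0429 with no filter, to 0.0464 at a mean of at least 5 FPKM and to 0.0547 as TPM, and without 1 sample it ranged from 0.0388 to 0.0438. An SD over 2 samples has a lower median by its construction. No paired analysis was possible because no groups were compared. With no depth in FPKM, values near 0 cannot be told from absence.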

Other observations

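Other gene groups completed the picture of the resting line. Of 37 cell cycle and tumour suppressor genes 36 (97.3%, against 57.0% of all genes) were expressed, with a median of 38.0 FPKM. Cdk4, a kinase of the G1 phase, was at 296, 296 and 292 FPKM, Trp53, the gene of p53, at 137, 133 and 135, and its target Cdkn1a at 53.98, 54.97 and 54.19. Tert, the telomerase subunit, was at 0.51, 0.54 and 0.55. Class I antigen presentation was present, H2-K1 at 262, 258 and 266 FPKM and B2m at 623, 617 and 574, and 26 of 31 such genes (83.9%, against 57.0% of all genes) were expressed. Of 21 genes of death receptors and necroptosis, 17 (81.0%, against 57.0% of all genes) were expressed. Among them were Ripk3 at 36.5, 37.8 and 37.3 FPKM and Mlkl at 20.6, 18.8 and 16.6. The TNF receptor gene Tnfrsf1a was at 60.2, 60.5 and 59.9, while Fas was at 0.69, 0.65 and 0.39.

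Of 31 immediate early and stress genes 25 (80.6%, against 57.0% of all genes) were expressed. Among them, Atf4, a factor of amino acid and endoplasmic reticulum stress, was at 465, 457 and 458 FPKM, Ddit3 at 68.5, 74.8 and 70.3 and Trib3 at 54.62, 58.33 and 55, whereas Atf3 had a mean of 0.02. Fos, an immediate early gene, was at 0.38, 0.57 and 0.46 FPKM, while Fosl1 of the same family was at 162, 164 and 162. Among glucose transporters, Slc2a1 was at 53.9, 54.9 and 59.5 FPKM and Slc2a3 was listed at 0. Of the cytoskeletal genes, Actb was at 2346 FPKM ± 58.0 (SD, n = 3) and Myl9, a contractile light chain, was listed at 0. Y chromosome genes were low, Eif2s3y at 0.77, 0.74 and 0.68 FPKM and Uty at 0.36, 0.31 and 0.56, against Eif2s3x at 93.4, 89.0 and 96.6.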
